A study of Mus musculus with 47 samples.

Results

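The genes described here are 10 listed genes of the integrated stress response, the pathway by which cells answer a shortage of amino acids. They are listed by name, as the sensor kinase Eif2ak4 and 9 genes placed downstream of it, and the list was drawn up with earlier results of these data known. All 10 were found by symbol and Ensembl ID among the 55416 genes of the deposited tables, and all 10 passed the low-count filter in both sexes. In this pathway GCN2, the kinase encoded by Eif2ak4, binds uncharged transfer RNA and phosphorylates the translation initiation factor eIF2α. General protein synthesis then slows while the mRNA of the transcription factor ATF4 is translated more, and ATF4 switches on genes for amino acid synthesis, amino acid transport and stress. Because ATF4 is controlled at translation, its activity is usually read from the mRNA of its targets rather than from its own.

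Brain RNA was sequenced from 3xTg mice of both sexes, which carry human APP with the Swedish mutation, mutant human tau and a mutant presenilin 1, the human transgenes being driven by the neuronal Thy1 promoter. From 6 months of age, for 9 months, they ate a Control diet or a diet with less isoleucine (IleR), less leucine (LeuR) or less valine (ValR). Every group carried the same transgenes, and no wild type mice were among these libraries, so each comparison is between diets within 3xTg brain. Of the males, 14 libraries were in the tables, 4 each on the Control and ValR diets and 3 each on IleR and LeuR, and of the females 23, 5 on IleR and 6 on each other diet, with total counts of 12682687 to 25722333 in males and 10672599 to 21370973 in females. Libraries are called here by their diet and their number in the labels. The labels name the tissue as brain while their extraction text speaks of liver. The 9 pan-neuronal genes of a marker list summed to at least 4650 CPM in every library, against at most 9.31 CPM for 4 liver genes. CPM here are counts scaled to the library total times its TMM normalization factor. The sources also differ on whether polyA or total RNA was sequenced, which is not settled here.

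The male libraries differed by diet in brain region genes. A list of 12 cerebellar genes summed to 41.9 to 119 CPM in male Control libraries, 1459 to 3873 in IleR, 262 to 1522 in LeuR and 1562 to 4995 in ValR, while a list of 16 forebrain genes ran the other way, from 940 to 2940 CPM in Control and 244 to 361 in IleR. Brainstem and spinal cord genes summed to 1.84 to 28.8 CPM in Control, where 5 of 13 were at 0 in every library, and to 78.1 to 319 in IleR. A hindbrain score (the mean log2 CPM of the hindbrain genes minus that of the forebrain genes) was −7.74 to −4.33 in male Control libraries, 1.02 to 3.20 in IleR, −3.58 to 3.24 in LeuR and 3.10 to 4.43 in ValR. In males, diet and the share of hindbrain tissue cannot be told apart. In females the scores of the diets overlapped (Control −7.62 to −0.213, IleR −7.39 to −0.994, LeuR −7.18 to 3.49, ValR −7.01 to −0.0637), so the slope of a gene on the score could be measured within diets. In bulk tissue, fewer cells of a type and less RNA per cell cannot be told apart.

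The promoters of 4 members held the core of the C/EBP-ATF composite element, the site that ATF4 shares with C/EBP proteins at amino acid response genes. The core was searched as TGATGNAA and its reverse TTNCATCA in the RefSeq windows of 250 bases before to 50 after each annotated start (build GRCm38.p6), where 1304 of 32851 windows held it (3.97%). Among the members 4 of 12 windows, 1 each in Asns, Chac1, Atf3 and Trib3, held a match, at −23, −193, −110 and 14 bases from the annotated start. They are printed because 2 of these genes, Asns and Chac1, are among the members with the largest differences described below. The sequences run 5′ to 3′ on the strand of the gene, at chr2:119350992-119351221 for Chac1, chr6:7693214-7693243 for Asns, chr1:191183425-191183454 for Atf3 and chr2:152344028-152344057 for Trib3, with the match in capitals.
Chac1: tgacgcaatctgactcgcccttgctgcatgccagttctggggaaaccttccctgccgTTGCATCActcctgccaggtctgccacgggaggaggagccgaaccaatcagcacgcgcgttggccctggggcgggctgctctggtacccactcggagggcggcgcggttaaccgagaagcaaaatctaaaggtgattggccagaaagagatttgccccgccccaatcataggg
Asns: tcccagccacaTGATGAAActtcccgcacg
Atf3: ccttctcgcacTTGCATCAccaagtccgcg
Trib3: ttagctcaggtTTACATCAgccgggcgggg
A match describes these letters only, and the other 6 members had none in this window.

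The members spanned a wide range of levels. Per kilobase of exon, Atf4 was highest, with a median of 50.2 CPM in males and 51.9 in females, followed by Asns (34.5 and 36.4), Ddit4 (26.2 and 25.4), Atf5 (18.3 and 15.8) and Ddit3 (9.39 and 9.34). Chac1, Eif2ak4 and Cebpb lay between 4.02 and 5.49 CPM per kilobase in both sexes. Atf3 (1.04 and 0.488) and Trib3 (0.654 and 0.527) were lowest, with 7 to 91 and 8 to 42 counts per library, so their values carry the widest counting error of the 10.

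**Figure D1:**
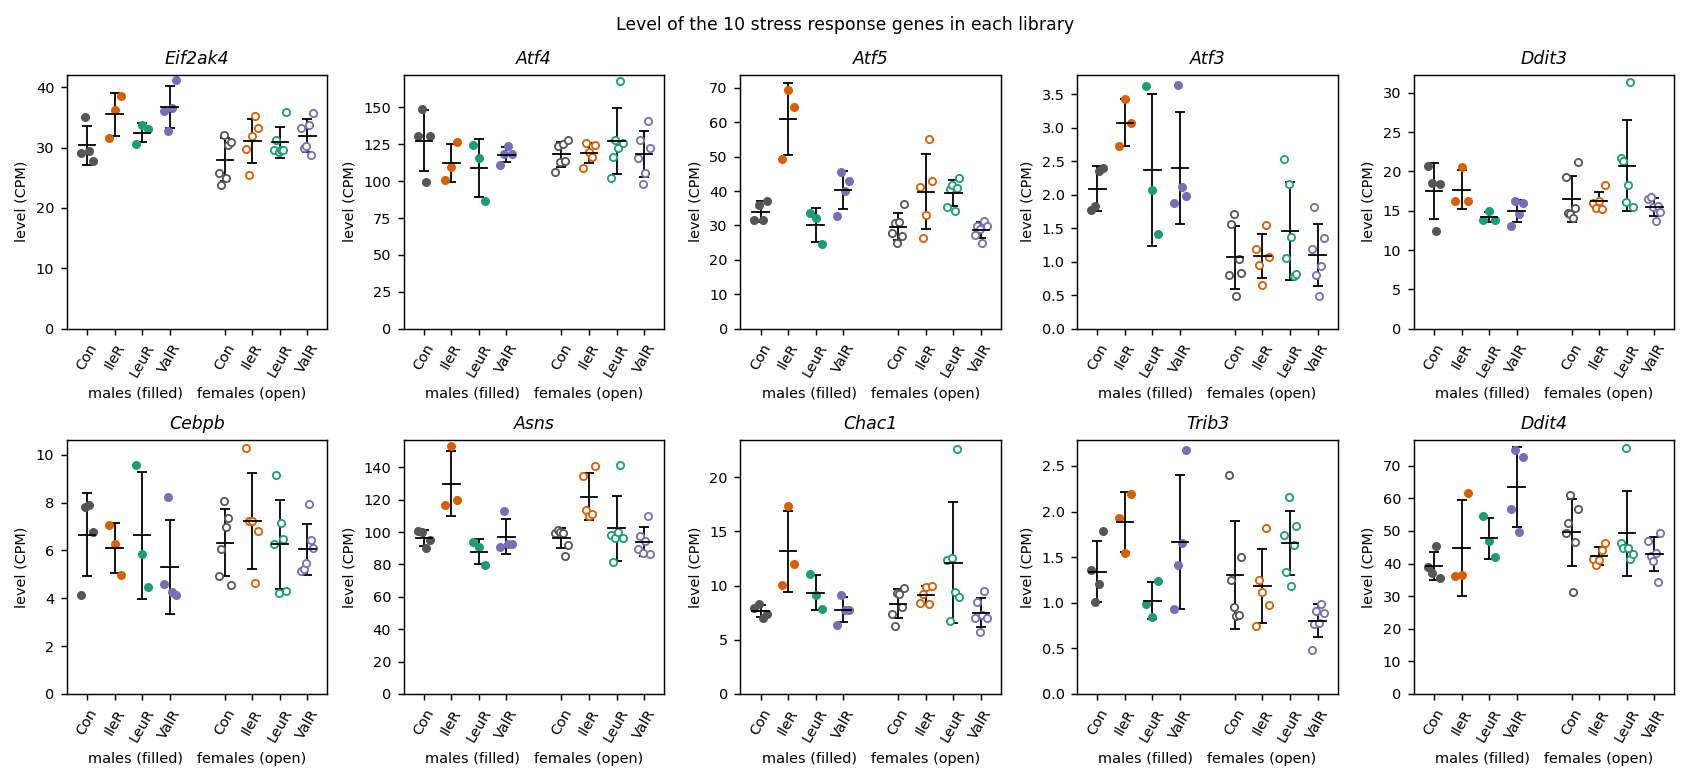
CPM of the 10 members in every library on linear axes from 0, by diet (Con is Control), with filled points for male and open points for female libraries and bars for the mean ± SD of each group. All 3 male IleR libraries lie above the 4 male Control libraries for Atf5, Atf3, Asns and Chac1, and all 4 male ValR libraries lie above them for Ddit4. Such a separation held for 14.8% of all tested genes with IleR and 12.7% with ValR.

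In males, Atf5, Chac1 and Asns rose with IleR and Ddit4 rose with ValR, while no member passed the test with LeuR. Among all tested genes, 6.63% were called higher with IleR and 11.1% with ValR. None of these male member calls held once the hindbrain score entered the model (edgeR adjusted p 0.791 to 0.942). In females no member passed the test on any diet, although Asns was higher in all 5 IleR libraries than in all 6 Control libraries. The gene encoding the sensor and Atf4 itself passed the test in neither sex. Positions of the genes below are those of GENCODE M21 on GRCm38. Each diet was compared with the Control diet of the same sex by edgeR's quasi-likelihood test over all genes, with Benjamini-Hochberg adjustment.

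Eif2ak4 (ENSMUSG00000005102, chr2:118388618-118475234, plus strand) encodes the sensor kinase GCN2. In males it stood at 29.1, 35.0, 29.4 and 27.8 CPM in Control 1, 3, 4 and 5, at 31.6, 36.3 and 38.6 in IleR, at 30.6, 33.7 and 33.1 in LeuR and at 36.1, 32.8, 36.5 and 41.2 in ValR. The groups overlapped, since Control 3 was higher than IleR 13, all LeuR libraries and ValR 9. The log2 fold change was 0.27 (SE 0.100, 95% interval 0.056 to 0.49) for ValR, with an adjusted p of 0.0657 in edgeR, and 0.23 (SE 0.108, adjusted p 0.181) for IleR. For ValR the call turned on the setting, since the adjusted p was 0.0302 without Control 3, 0.0405 without ValR 9 and 0.0453 with edgeR's filterByExpr. In females the medians were 28.1 CPM in Control (23.8 to 32.1), 32.0 in IleR (25.5 to 35.1), 29.6 in LeuR (29.3 to 35.9) and 31.7 in ValR (28.7 to 35.7), and the groups overlapped.

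Atf4 (ENSMUSG00000042406, chr15:80255184-80257541, plus strand), the central transcription factor of the response, was the member with the highest level and, with a coefficient of variation of 13.3% over the male libraries, the least variable after Eif2ak4 (11.4%). Male Control libraries held 131, 149, 99.4 and 130 CPM (in the order of library numbers, as in all such lists), IleR 101, 110 and 127, LeuR 124, 116 and 86.6 and ValR 111, 118, 123 and 118. Control 4 was lower than every IleR and ValR library, and the other 3 Control libraries were higher than all of them. With IleR the log2 fold change was −0.18 (95% interval −0.49 to 0.13), with LeuR −0.23 (−0.53 to 0.082) and with ValR −0.11 (−0.40 to 0.17), with edgeR adjusted p of 0.337 to 0.599. In females the changes with IleR, LeuR and ValR were 0.0090, 0.10 and 0.0012 on the log2 scale, and medians lay between 119 and 124 CPM in all 4 diets. An interval for the female IleR difference of −0.20 to 0.22 bounds the change of Atf4 mRNA in that comparison, and says nothing of its translation.

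Atf5 (ENSMUSG00000038539, chr7:44812256-44816658, minus strand), a related factor whose translation is also raised by eIF2α phosphorylation, showed the largest difference in males. Control libraries held 31.5, 35.9, 31.6 and 37.2 CPM and IleR libraries 49.4, 69.4 and 64.5. LeuR libraries held 33.6, 32.2 and 24.6 CPM and ValR libraries 32.8, 45.4, 40.1 and 42.8. Every IleR library was higher than every other male library, and LeuR overlapped with Control. Atf5 rose 1.80-fold with IleR (95% interval 1.44 to 2.23, log2 0.84, SE 0.146), with an edgeR adjusted p of 0.00234, and it passed in all 14 fits that left out 1 male library. Once the hindbrain score entered the model it was 0.39 and did not pass (edgeR adjusted p 0.791). For LeuR and ValR the log2 fold changes were −0.18 (SE 0.148) and 0.24 (SE 0.137), with edgeR adjusted p of 0.484 and 0.226.

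In females Atf5 was higher with both IleR and LeuR on the unadjusted test. Its medians were 29.1 CPM in Control (25.0 to 36.2), 41.3 in IleR (26.3 to 55.3), 40.7 in LeuR (34.3 to 43.9) and 29.4 in ValR (25.0 to 31.4). The IleR libraries were spread, with IleR 39 at 26.3 within the Control range and IleR 41 at 55.3 above all others, while 4 of 6 LeuR libraries were above all Control libraries. The log2 fold change was 0.43 (SE 0.134) for IleR, with an unadjusted edgeR p of 0.0041, and 0.42 (SE 0.128) for LeuR, with an unadjusted edgeR p of 0.00382. After adjustment over all genes these were 1.00 and 0.968. Without IleR 41 the IleR value fell to 0.28, and without LeuR 47 the LeuR value stayed at 0.42.

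Atf3 (ENSMUSG00000026628, chr1:191170296-191218039, minus strand), a stress-inducible factor of the same family, was low in all groups. Male Control libraries held 1.77, 1.83, 2.36 and 2.40 CPM, IleR 2.73, 3.43 and 3.08, LeuR 3.63, 2.07 and 1.41 and ValR 1.87, 3.64, 2.12 and 1.98. All 3 IleR libraries were above all Control libraries, but the difference (log2 0.56, SE 0.325) had an edgeR adjusted p of 0.278, and LeuR 19 and ValR 9 were higher still. Female libraries ran from 0.486 to 2.53 CPM over all diets, and no fold change passed (log2 0.037, 0.44 and 0.054 with IleR, LeuR and ValR).

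Ddit3 (ENSMUSG00000025408, chr10:127290774-127296288, plus strand) encodes CHOP, a factor linked to cell death under prolonged stress. A further protein-coding entry of the same name overlaps its exons on the same strand, and reads that both share may be miscounted. In males it stood at 20.6, 18.5, 12.5 and 18.4 CPM in Control, 16.2, 20.5 and 16.2 in IleR, 13.8, 15.0 and 13.8 in LeuR and 13.1, 16.2, 14.6 and 16.0 in ValR. Control 4 was below every other male library, and the other Control libraries were above all LeuR and ValR libraries. Its log2 fold change was 0.013 with IleR, −0.30 with LeuR and −0.23 with ValR, with edgeR adjusted p of at least 0.245, and Control 4 decided the last 2: without it they were −0.44 (adjusted p 0.0348) and −0.36 (adjusted p 0.0447). In females Ddit3 had medians of 15.0 CPM in Control and 19.8 in LeuR, where LeuR 47 reached 31.4. The female LeuR difference of 0.33 on the log2 scale (unadjusted edgeR p 0.0279) was 0.18 without that library.

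Cebpb (ENSMUSG00000056501, chr2:167688915-167690418, plus strand) encodes a C/EBP factor that binds with ATF4 at amino acid response genes. Male Control libraries ran from 4.15 to 7.89 CPM, IleR from 4.98 to 7.08, LeuR from 4.46 to 9.58 and ValR from 4.14 to 8.22, and all 4 diets overlapped. No fold change passed in either sex, with log2 values of −0.33 to −0.0025 in males and −0.065 to 0.19 in females.

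Asns (ENSMUSG00000029752, chr6:7675169-7693254, minus strand) encodes asparagine synthetase, an enzyme commonly used as a readout of amino acid limitation. Male Control libraries held 100.6, 100.2, 89.9 and 94.9 CPM and IleR libraries 117, 153 and 120.1. LeuR libraries held 93.7, 90.7 and 79.4 CPM and ValR libraries 91.0, 113, 92.6 and 92.5. Every IleR library was above every other male library, with ValR 9 the nearest. Asns rose 1.35-fold with IleR (95% interval 1.14 to 1.59, log2 0.43, SE 0.112), with an edgeR adjusted p of 0.0196. Without IleR 14, the highest library, the difference was 0.30 on the log2 scale and no longer passed (edgeR adjusted p 0.117), and it was 0.20 once the hindbrain score entered the model (edgeR adjusted p 0.876). For ValR the log2 fold change was 0.013 (95% interval −0.21 to 0.24) and for LeuR −0.13 (−0.38 to 0.11).

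Female IleR libraries held 134.8, 113, 109.8, 111 and 140.5 CPM of Asns, while the Control libraries ran from 85.2 to 101, with a median of 99.7. All 5 IleR libraries were above all 6 Control libraries, a separation in that direction seen for 22 of 20344 genes (0.108%). The log2 fold change was 0.34 (SE 0.107, 95% interval 0.12 to 0.56), or 1.27-fold, with an unadjusted edgeR p of 0.00429 and an adjusted p of 1.00. Leaving out 1 female library at a time left it at 0.28 or more. All 5 were also above all 6 ValR libraries (86.3 to 109.6 CPM), which held for 0.221% of genes. LeuR had a median of 97.4 CPM and 1 high library, LeuR 47, at 141.

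Chac1 (ENSMUSG00000027313, chr2:119351229-119354381, plus strand) encodes an enzyme that breaks down glutathione and is a strong ATF4 target. Male Control libraries held 7.90, 8.28, 7.00 and 7.38 CPM, IleR 10.1, 17.4 and 12.0, LeuR 11.1, 9.14 and 7.85 and ValR 6.33, 9.17, 7.78 and 7.77. All 3 IleR libraries were above all Control and ValR libraries, while LeuR 19 lay above IleR 13. Chac1 rose 1.72-fold with IleR (95% interval 1.29 to 2.31, log2 0.79, SE 0.194), with an edgeR adjusted p of 0.0156. This value too rested partly on IleR 14, and without it was 0.53 (edgeR adjusted p 0.108), and the value was 0.24 once the hindbrain score entered the model (edgeR adjusted p 0.916).

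In females Chac1 differed little between Control and IleR, with medians of 8.64 CPM (6.29 to 9.82) and 9.27 (8.26 to 10.0). The 6 LeuR libraries were the most spread of any group, at 12.4, 6.78, 12.5, 9.38, 22.6 and 8.99 CPM. LeuR 47 was higher than any other library of either sex. The LeuR difference of 0.54 on the log2 scale (SE 0.206, unadjusted edgeR p 0.0153) was 0.28 without it (unadjusted p 0.0909).

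**Figure D2:**
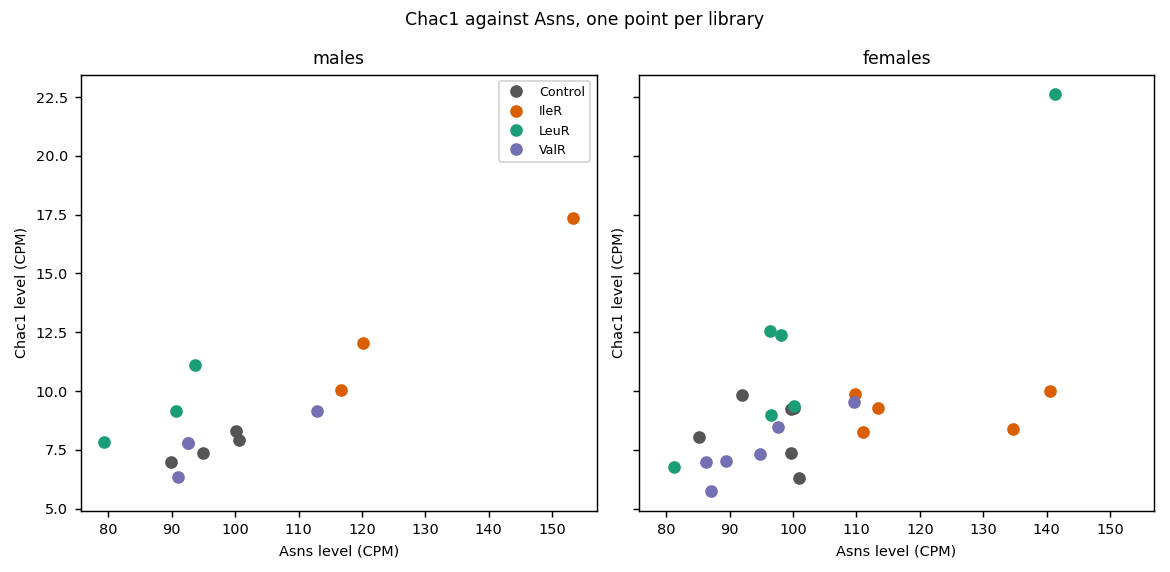
Chac1 level against Asns level (both in CPM), 1 point for each library, coloured by diet, males and females apart. In males IleR 14 lies farthest out, at 153 CPM of Asns and 17.4 of Chac1, and in females LeuR 47 stands alone, at 141 and 22.6.

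Asns and Chac1 varied together within diets in males. After diet means were removed, their log2 CPM correlated over 14 male libraries with a Pearson r of 0.912 and a Spearman rho of 0.925, both with a permutation p adjusted over 45 member pairs of 0.00495. Without the 2 libraries farthest from the median of Asns, r was 0.851. By rank, Ddit3 also went with Asns (rho 0.785, permutation adjusted p 0.0241) and with Chac1 (rho 0.776, permutation adjusted p 0.0372), but by Pearson r neither passed (0.639 and 0.584, permutation adjusted p 0.0601 and 0.0876). In 23 female libraries none of 45 pairs passed, and the r of 0.709 for Asns and Chac1 was 0.276 without the 2 farthest libraries.

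Trib3 (ENSMUSG00000032715, chr2:152337422-152344032, minus strand), a pseudokinase that feeds back on ATF4 and CHOP, was the lowest member per kilobase in males. Male Control libraries held 1.36, 1.01, 1.21 and 1.79 CPM, IleR 1.92, 1.54 and 2.19, LeuR 0.985, 0.845 and 1.24 and ValR 0.936, 1.42, 1.65 and 2.68. IleR and Control overlapped only through Control 5 and IleR 14, LeuR had the lowest mean (1.02 CPM), and ValR spread across most of the range of the other groups. No male fold change from Control passed (log2 0.48 for IleR, −0.38 for LeuR and 0.32 for ValR, with edgeR adjusted p of at least 0.379). In females the ValR libraries were lowest, with a median of 0.830 CPM (0.476 to 0.988) against 1.10 in Control (0.850 to 2.40), 1.12 in IleR and 1.69 in LeuR (1.19 to 2.16). The female ValR difference of −0.70 on the log2 scale (SE 0.268, unadjusted edgeR p 0.0167) was −0.43 without Control 25.

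Ddit4 (ENSMUSG00000020108, chr10:59949669-59951834, minus strand) encodes REDD1, an inhibitor of mTORC1 that is also induced by glucocorticoids and hypoxia. Male Control libraries held 39.0, 37.2, 45.3 and 35.5 CPM and ValR libraries 56.6, 74.8, 49.7 and 72.6. IleR libraries held 36.2, 36.5 and 61.7 CPM and LeuR libraries 54.5, 46.8 and 42.1. Every ValR library was above every Control library, and IleR was split, with IleR 17 among the ValR values and the other 2 among Control. Ddit4 rose 1.62-fold with ValR (95% interval 1.23 to 2.12, log2 0.69, SE 0.181), with an edgeR adjusted p of 0.0139, and it passed in 13 of 14 fits that left out 1 library. Without ValR 12 the value was 0.62 and its adjusted p 0.0506, and once the hindbrain score entered the model it was 0.15 (edgeR adjusted p 0.942). In females Ddit4 was 31.3 to 60.9 CPM in Control and 34.4 to 49.5 in ValR, with a log2 fold change of −0.21 (SE 0.145).

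**Figure D3:**
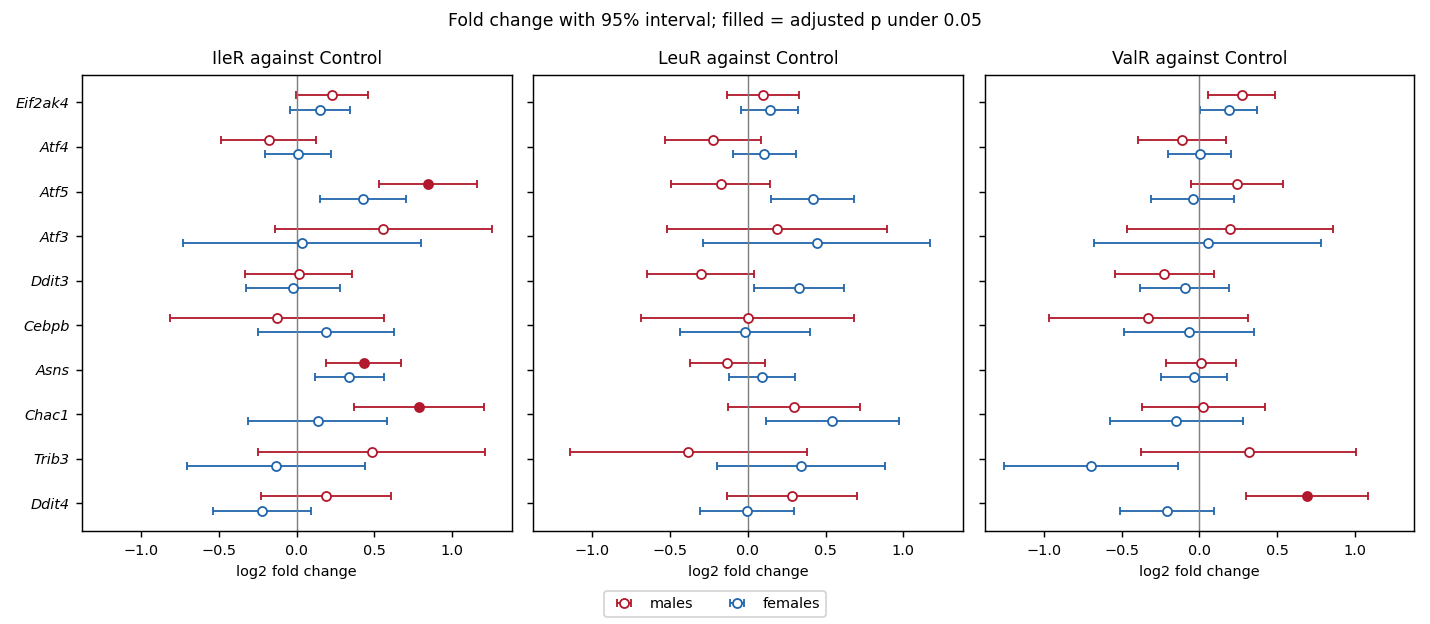
Log2 fold change from Control with its 95% interval for each member, 1 panel for each restricted diet, males and females in separate colours. Filled points pass an edgeR adjusted p of 0.05, which in males are Atf5, Asns and Chac1 with IleR and Ddit4 with ValR, and in females none.

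These counts stand against many calls among all genes in males. With IleR, 3 of 10 members were called higher and 0 lower, where 6.63% of 22197 tested genes were called higher and 8.68% lower. With ValR it was 1 higher and 0 lower, where 11.1% and 12.4% of genes were called, and with LeuR 0 and 0, where 3.81% and 6.33% were. At an unadjusted p under 0.05 edgeR also gave 0 members with LeuR, and limma voom and DESeq2 called none. Of all genes, 14.8% were higher in every IleR than in every Control library, which held for 4 of 10 members, and 12.7% were higher in every ValR library, which held for 1. A test of any difference among the 4 diets called Atf5 (edgeR adjusted p 0.00176), Asns (0.0156) and Chac1 (0.0285) in males, 3 of 10 members against 19.3% of genes, and no member in females, where it called 4 genes (0.0197%). Taken over the 10 members, the median log2 fold change was 0.33 with IleR, −0.068 with LeuR and 0.11 with ValR, beside 0.043, 0.053 and 0.032 over all tested genes.

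In females edgeR called no gene for any diet against Control (0% of 20344 genes with IleR, 0% with LeuR and 0% with ValR). At an unadjusted p under 0.05 it gave 2 members with IleR (Atf5 and Asns), where 577 genes passed (2.84%). With LeuR it gave 3 (Atf5, Chac1 and Ddit3), where 820 passed (4.03%), and with ValR 2 (Eif2ak4 and Trib3), where 777 passed (3.82%). DESeq2 called 8 genes with IleR and 1 with LeuR, limma voom called 1 with IleR, and no member was among them. The members' median log2 fold changes were 0.087, 0.23 and −0.054, beside −0.010, 0.0026 and −0.0087 over all genes.

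The restricted diets were also compared with each other, since on average the male libraries on these diets lie closer to each other in hindbrain score than to Control. In males, IleR exceeded LeuR in Atf5 by 1.02 on the log2 scale (95% interval 0.68 to 1.36) and in Asns by 0.56 (0.31 to 0.82). Cerebellar genes still summed to 1459 to 3873 CPM in IleR and 262 to 1522 in LeuR. A list of 7 blood genes summed to 1446 to 2061 CPM in IleR and 2506 to 19930 in LeuR. The part of either list in this contrast was not tested. All 3 IleR libraries were above all 3 LeuR libraries for Atf5, Ddit3, Trib3 and Asns, a separation seen for 9.38% of genes. Atf5 was second among 22197 genes by p (edgeR p 1.92e-05, rank 2), but its adjusted p was 0.193, that of Asns was 0.356, and edgeR called 0 genes (0%) while 2512 passed an unadjusted p under 0.05. DESeq2 called 108 genes, among them Atf5 (adjusted p 5.29e-05) and Asns (0.0181).

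Against ValR, whose scores lay close to those of IleR, male IleR libraries were higher in Atf5 by 0.60 on the log2 scale (95% interval 0.29 to 0.91), in Chac1 by 0.76 (0.34 to 1.18) and in Asns by 0.42 (0.18 to 0.66). They ranked 15, 16 and 21 by p among 22197 genes, and no IleR library overlapped with ValR for them or for Ddit3, as held for 3.43% of genes. Their edgeR adjusted p was 1, with 0 genes called (0%) by edgeR and limma voom, 7 by DESeq2 and 628 at an unadjusted p under 0.05. Ddit4 was lower by 0.50 (edgeR p 0.0233). Without IleR 14 the 3 differences were 0.50, 0.51 and 0.28. Between ValR and LeuR in males, where 2.75% of genes were called, no member was, and the nearest was Atf5 (log2 0.42, edgeR adjusted p 0.113).

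In females the clearest contrast among members was between ValR and LeuR. All 6 ValR libraries were below all 6 LeuR libraries for both Trib3 and Atf5, as for 0.295% of genes. The log2 differences were −1.04 for Trib3 (SE 0.268, edgeR p 0.000841, rank 18) and −0.46 for Atf5 (SE 0.128, edgeR p 0.00172, rank 43), and Chac1 (−0.69) and Ddit3 (−0.42) also passed an unadjusted p under 0.05. Without LeuR 47 these last values were −0.43 and −0.27. Those 4 members stood among 1014 genes (4.98%), no gene passed adjustment in edgeR (0%), and DESeq2 called 2 genes, neither of them a member. Female IleR libraries were higher than ValR in Atf5 by 0.47 (edgeR p 0.00191) and in Asns by 0.37 (edgeR p 0.00211), both at adjusted p of at least 0.726.

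The difference between the sexes was tested as an interaction. The ValR change of Ddit4 was larger in males than in females by 0.88 on the log2 scale (SE 0.239, 95% interval 0.39 to 1.37), with an edgeR adjusted p of 0.0354 (0.0567 by limma voom). The hindbrain score differed by 10.3 units between male Control and ValR libraries while the female diets overlapped, and the female slope of Ddit4 on the score times that difference was 0.54 (SE 0.135). That slope leaned on LeuR 45, without which it was 0.034 rather than 0.053 per unit. The part of brain region in this sex difference was not tested. Ddit4 was the 1 member called of 10, where 4.25% of genes were called. For IleR and LeuR no member was called, where 0.0979% and 0.00445% of genes were. The IleR changes differed between males and females by 0.41 for Atf5 (95% interval −0.018 to 0.83), 0.65 for Chac1 (0.0028 to 1.29) and 0.089 for Asns (−0.25 to 0.43). The Chac1 interval lay just above 0, but after adjustment none passed (edgeR adjusted p 0.284, 0.260 and 0.812). The male call and the lack of a female call thus do not show a difference for them. The LeuR changes of Ddit3 (−0.61) and Atf5 (−0.57) were lower in males, with edgeR adjusted p of 0.227 and 0.234.

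How far each member followed the brain region genes was read from the female libraries, within diets. There Ddit4 rose with the hindbrain score by 0.053 on the log2 scale per unit (SE 0.0131, edgeR adjusted p 0.00221), Eif2ak4 rose by 0.031 (SE 0.00863, adjusted p 0.00562) and Cebpb fell by 0.060 (SE 0.0224, adjusted p 0.0339). The other 7 members were not called, against 45.5% of all genes called. The slopes were 0.025 for Atf5 (edgeR adjusted p 0.181), −0.020 for Asns (0.176) and −0.00072 for Chac1 (0.985). In males no member was called and 1.01% of genes were. The male slopes were 0.051 (SE 0.0321) for Atf5, 0.026 (SE 0.0251) for Asns and 0.061 (SE 0.0425) for Chac1. They were 0.053 (SE 0.0425) for Ddit4, −0.0098 (SE 0.0249) for Eif2ak4 and 0.13 (SE 0.0630) for Cebpb. For Asns, Chac1, Eif2ak4 and Cebpb the sign was opposite to the female one. The female Ddit4 slope leaned on LeuR 45, without which it was 0.034 with an edgeR adjusted p of 0.0787, and the female Cebpb slope passed in 17 of 23 fits that left out 1 library. Over those fits the female Asns slope ran from −0.028 to −0.0094. It passed without LeuR 44, at −0.028 with an edgeR adjusted p of 0.0289.

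**Figure D4:**
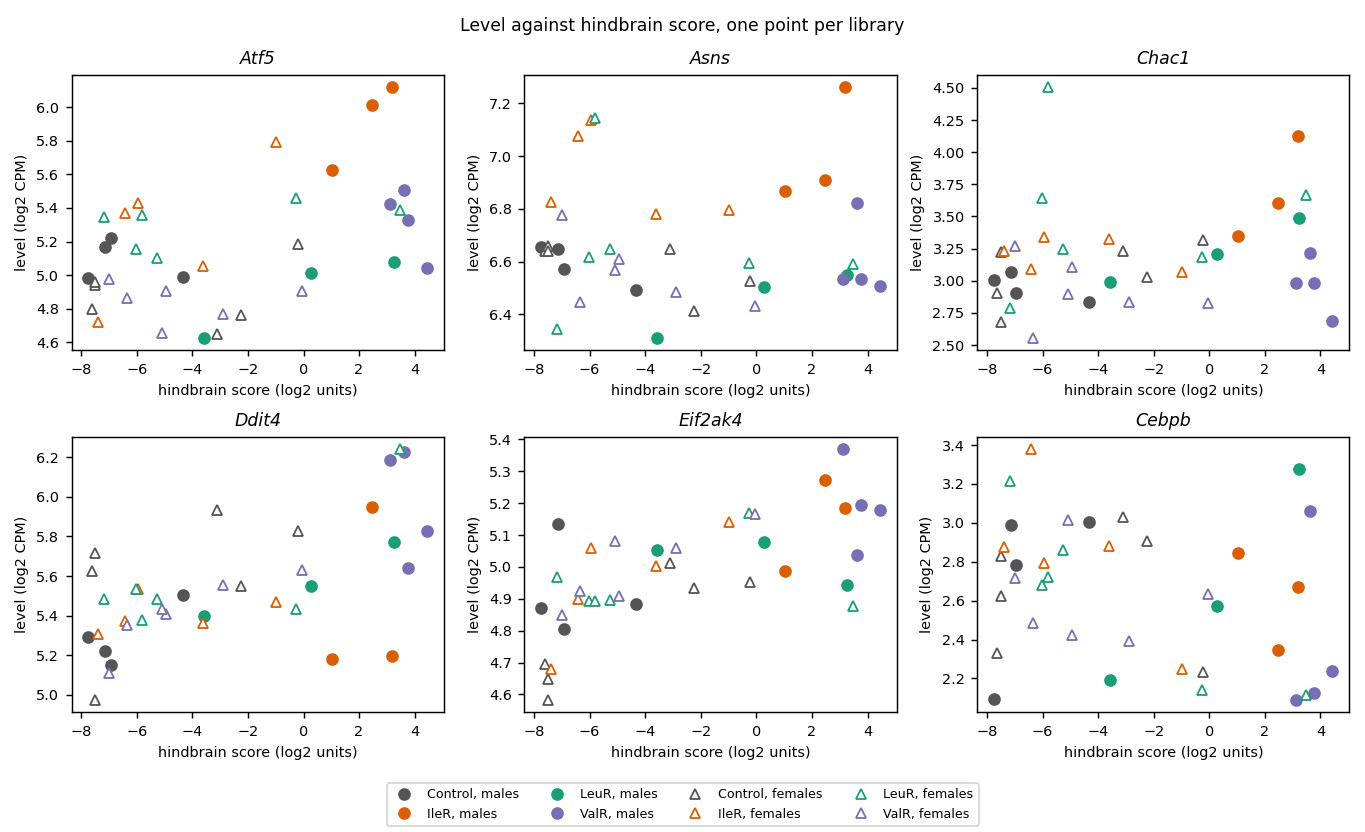
Level (log2 CPM) of 6 members against the hindbrain score (log2 units), 1 point for each library, with filled circles for males, open triangles for females and colours for diets. The male Control libraries lie at scores of −7.74 to −4.33 and all other male libraries to their right, while among the female libraries Ddit4 and Eif2ak4 climb with the score and Asns does not.

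Set beside the male changes, the female slope times the male score difference of 8.77 units between IleR and Control came to 0.21 (SE 0.127) for Atf5, where the measured change was 0.84, to −0.18 (SE 0.103) for Asns, where it was 0.43, and to −0.0063 (SE 0.223) for Chac1, where it was 0.79. For ValR, at 10.3 units, it came to 0.54 (SE 0.135) for Ddit4, where the measured change was 0.69, and to 0.32 (SE 0.0886) for Eif2ak4, where it was 0.27. With the score as a covariate in the male fit itself, Atf5 was 0.39, Asns 0.20 and Chac1 0.24 for IleR and Ddit4 0.15 for ValR, and no member was called. No male Control library overlapped a restricted one in score. The highest female scores were 3.49 in LeuR 45 and −0.0637 in ValR 36, while male IleR libraries stood at 1.02 to 3.20 and ValR libraries at 3.10 to 4.43. Above −0.0637 the female slopes rest on LeuR 45 alone, so at these male scores the products are extrapolated. The same limit holds for the products given for the gene lists below.

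The wider set of ATF4-linked genes of amino acid and one-carbon metabolism held 21 measured genes. In males 9 were called higher and 0 lower with IleR, 2 and 0 with LeuR, and 7 and 1 with ValR. Of all tested genes 6.63%, 3.81% and 11.1% were called higher and 8.68%, 6.33% and 12.4% lower. The median log2 fold changes of the 21 were 0.42, 0.15 and 0.19. Without IleR 14 the IleR count was 3. The 3 with the smallest adjusted p with IleR were Shmt2, the mitochondrial serine hydroxymethyltransferase, which went from a mean of 21.9 to 39.9 CPM (log2 0.86, edgeR adjusted p 0.00151), Aldh1l2, a mitochondrial folate enzyme, from 7.50 to 23.8 (1.66, 0.00166), and Slc6a9, the glycine transporter GlyT1, from 74.2 to 179 (1.27, 0.00484). Calls on the other diets included Slc6a9 with LeuR (1.31) and ValR (1.28) and Shmt2 with ValR (0.67), and are not listed in full. For Slc6a9 the direction reversed with IleR (−0.073) and ValR (−0.31) once the hindbrain score entered the model, and the LeuR value was 0.28 there. In females none of the 21 was called, and the medians were 0.087, 0.11 and 0.025.

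Their slopes on the hindbrain score were read from the female libraries as well. Of the 21, 9 had a positive and 3 a negative slope that passed, where 45.5% of all genes had one in either direction. Of the 9 called higher with IleR in males, 6 had a positive one. The share with a positive slope among all genes called higher with IleR was not worked out. The slope times the male score difference was 0.70 for Shmt2, 1.63 for Aldh1l2 and 1.09 for Slc6a9, beside measured changes of 0.86, 1.66 and 1.27. For the remaining 3 of those 6, Mthfd2, Pck2 and Aldh18a1, it was 0.62 (SE 0.131), 0.65 (SE 0.0899) and 0.26 (SE 0.0701), beside measured changes of 1.20, 0.57 and 0.42. The other 3 of the 9 were Pycr1, Slc7a1 and Phgdh, which like Mthfd2, Pck2 and Aldh18a1 were named after their values were seen, and which act in proline synthesis, cationic amino acid transport and serine synthesis. Their male IleR changes were 1.10, 0.63 and 0.52, beside −0.35 (SE 0.278), −0.18 (SE 0.0957) and −0.051 (SE 0.112) from the female slope. These 3 are the ones left after those with a positive slope were set apart, so the gap to the slope value follows from that choice. Pycr1 stood at 1.24 to 2.40 CPM in Control, 3.48 to 3.73 in IleR, 1.57 to 1.98 in LeuR and 1.01 to 1.72 in ValR. Cell type markers also differed in these libraries. The 8 astrocyte markers summed to 2080 to 3015 CPM in male Control libraries, 3816 to 4213 in IleR, 2450 to 4324 in LeuR and 3990 to 4881 in ValR. The 8 oligodendrocyte markers summed to 4734 to 9742 CPM in Control and 10548 to 15355 in IleR, and the 9 pan-neuronal genes to 5872 to 7421 and 4679 to 5447. Male Control and IleR libraries did not overlap for any of these 3 lists, and the part of cell type in these results was not tested.

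**Figure D5:**
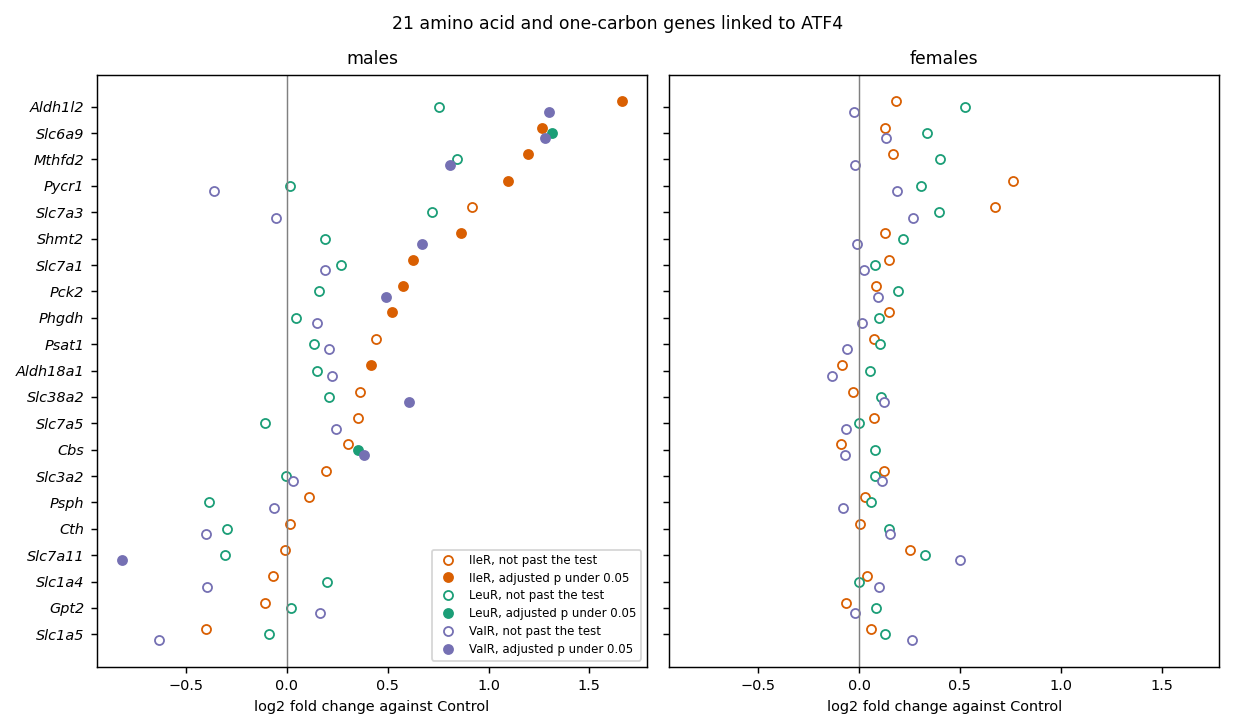
Log2 fold change from Control of the 21 ATF4-linked amino acid and one-carbon genes in males and females, coloured by diet, 1 line for each gene. Filled points have an edgeR adjusted p under 0.05, which with IleR are 9 of 21 in males (median of all 21 genes 0.42) and none in females (median 0.087).

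Among 21 ATF4-linked stress and signalling genes, 5 were called higher and 1 lower with IleR in males, 0 and 1 with LeuR, and 2 and 1 with ValR, beside 6.63%, 3.81% and 11.1% of all genes called higher and 8.68%, 6.33% and 12.4% lower. Stc2, which encodes the secreted protein stanniocalcin 2, went from 2.28 to 5.42 CPM with IleR (log2 1.25, beside 0.80 from the female slope times the score difference), and Jdp2, a repressor of the AP-1 family, fell by 1.09. Jdp2 also fell with LeuR, by 1.13, and with ValR, by 1.13, and its female slope on the hindbrain score was −0.10 (edgeR adjusted p 1.44e-05), which times the IleR score difference gives −0.88. All 4 genes called higher with IleR that could be tested in females, Stc2, Gdf15, Sesn2 and Vldlr, the last 3 named after their values were seen, had a positive female slope that passed. Among the 20 genes of the list tested there, 9 had a positive and 3 a negative slope that passed. Of all genes 45.5% had one in either direction, and the share of positive ones alone was not worked out. For Gdf15, Sesn2 and Vldlr the slope times the score difference was 2.44, 0.66 and 0.50, beside measured changes of 1.98, 0.75 and 0.51. Fgf21, a hormone of amino acid restriction, had 0 counts in all 4 male Control libraries and 5 to 25 in the IleR libraries. Its mean of 0.578 CPM was at least 3.12-fold higher than a floor of 3 counts per Control library. In LeuR it had 1 to 2 counts, a mean under that floor. In ValR it had 0 to 7 counts and a mean of 0.200 CPM, near the floor, and edgeR called it higher there too (adjusted p 0.0331), in 9 of 14 fits that left out 1 library against 14 of 14 for IleR. Of the other alternatives, 5 of 7 called Fgf21 with IleR and 3 of 6 with ValR. Neither call held once the hindbrain score entered the model, alone or with a score of choroid plexus genes (edgeR adjusted p up to 0.945 for IleR and 0.958 for ValR), and limma voom, at a log2 of 2.23, did not call it with ValR. Over the other alternatives the log2 values were 4.23 to 6.42 with IleR and 2.23 to 4.815 with ValR, sizes that rest on 0 counts in Control. Without IleR 14, 2 genes of this list were called higher and 1 lower.

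The sensing side of the pathway was read from a list of its own. Of 16 genes, for eIF2 kinases, the GCN2 regulators GCN1 and IMPACT, subunits of eIF2 and eIF2B, eIF2α phosphatase subunits and the initiation factor eIF2A, 1 was called with IleR in males (Eif2s2, log2 0.31), 0 with LeuR and 2 with ValR (Eif2b4, 0.33, and Ppp1r15a, 0.42), all higher and none lower, where 6.63%, 3.81% and 11.1% of all genes were called higher. The female slope times the male score difference was 0.16 for Eif2s2 with IleR, and 0.41 for Eif2b4 and 0.48 for Ppp1r15a with ValR. A list of 20 genes covered endoplasmic reticulum chaperones and the unfolded protein response, the answer to misfolded proteins in that compartment. In males 0 of them were called higher on any diet, and 1, 1 and 10 were called lower with IleR, LeuR and ValR. For all genes the shares called lower were 8.68%, 6.33% and 12.4%. Pdia6, a protein disulfide isomerase, fell by 0.48 with IleR and by 0.72 with ValR, and once the hindbrain score entered the model the IleR value was 0.0087. Of 12 glucocorticoid-responsive genes, to which Ddit4 is related by its regulation, 4 were called higher with ValR, 0 with IleR and 0 with LeuR, and 1 was called lower on each of the 3 diets, beside those same shares of all genes. Among the 4 were the metallothionein genes Mt1 (log2 1.04) and Mt2 (log2 1.26), whose direction reversed once the hindbrain score entered the model (−0.79 and −0.65). Immediate early genes were called lower in 10, 9 and 11 of 16 cases, in the same libraries whose forebrain genes were low, and the part of region in the chaperone, glucocorticoid and immediate early lists was not tested beyond that model. In females none of these genes was called.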

How the data were processed

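The authors deposited estimated counts per gene from RSEM (expected counts) on GENCODE M21 and GRCm38. The aligner was not given in the sources used here. Deposited tables of the authors' own comparisons (fold changes and p-values) were not used. Of 47 labelled libraries, 37 had a column, and 10 male libraries were not analysed. All 37 matched their sex label. Counts were rounded (at most 4.93% of values were not whole), kept where all libraries of a group had at least 1 count, scaled by TMM and tested per sex, with all 4 diets in 1 model, by edgeR 4.0.16 (R 4.3.3) quasi-likelihood tests with Benjamini-Hochberg adjustment over all genes. CPM used the total count times the TMM factor, and log2 CPM a prior count of 2. For the hindbrain score, log2 CPM was averaged over the cerebellum and brainstem lists, and the average over the forebrain list was subtracted. Alternatives used limma 3.58.1, DESeq2 1.42.0, other filters and scaling, score covariates, and leaving out each library. In 73 replicate pairs, chi-square per degree of freedom was 9.09 to 149, so none was a repeated library. The study counts its groups in animals, so libraries were taken as separate mice. Within-diet correlations used 100000 permutations. The members and lists were chosen with earlier results of these data known. Beside the 10 members, the rule for naming took at most 3 genes of a list, those with the smallest adjusted p. Mthfd2, Pck2, Aldh18a1, Pycr1, Slc7a1, Phgdh, Gdf15, Sesn2 and Vldlr were named outside it, after their values were seen. The test was run first on simulated data. Genes sharing reads with close copies may be miscounted.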

Additional observations from a re-analysis of the deposited data

Results flagged for a closer look

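In groups of 4 to 10 libraries, the highest or lowest value of a member was compared with the gap that Dixon's 95% limit allows. Of 60 groups tested (10 members in 6 groups), 7 passed it (11.7%), where chance passes about 1 in 20. In males all 3 were in ValR 9: Atf3 at 3.64 CPM (nearest ValR library 2.12), Asns at 113 (nearest 92.6) and Cebpb at 8.22 (nearest 4.61). In females LeuR 47 stood apart for Asns, at 141.3 CPM (nearest LeuR library 100.2), and for Chac1, at 22.6 (nearest 12.55). LeuR 45 stood apart for Ddit4, at 75.5 CPM (nearest 46.2), and LeuR 48 for Eif2ak4, at 35.9 (nearest 31.2). The Ddit4 change with ValR differed between the sexes by 0.88 on the log2 scale by the interaction test (edgeR adjusted p 0.0354), which did not pass by limma voom (adjusted p 0.0567). The hindbrain score differed by 10.3 units between male Control and ValR libraries and overlapped between the female diets, the female slope of Ddit4 times that difference was 0.54 (SE 0.135), and the part of brain region was not tested. Without LeuR 45 that slope was 0.034 per unit, against 0.053 with all female libraries. Male ValR libraries held 49.7 to 74.8 CPM of Ddit4, and female ones 34.4 to 49.5.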

How the results depend on the processing

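No paired analysis was possible because each library number occurs once, so no number links a library of one diet to one of another. Comparisons between restricted diets were chosen after seeing the data. Genes called in males moved from 3398 with IleR to 3 once the hindbrain score entered the model and 0 with the choroid plexus score too, from 2249 with LeuR to 3611 by DESeq2, 0 with only the 2 groups, 11 and 4 with the covariates, and from 5212 with ValR to 0 and 0. Members called fell to 0 and 0 under both covariate fits from 3 with IleR and from 1 with ValR, and ValR gave 2 with filterByExpr. Leaving out 1 male library gave 1838 to 4357 genes and 1 to 3 members with IleR, 543 to 3952 genes and 0 to 1 members with LeuR, and 3843 to 5990 genes and 0 to 2 members with ValR. In females the 0 genes became 1 (limma voom), 8 (DESeq2) and 2 (both covariates) with IleR, 1 (DESeq2) with LeuR and 1 (both covariates) with ValR, and 0 to 5 with IleR when 1 library was left out. Female slopes called 1 to 3 members, and the ValR interaction 0 members by limma voom. Directions reversed under the hindbrain covariate for Slc6a9 (IleR −0.073, ValR −0.31), Pdia6 (IleR 0.0087), Mt2 (ValR −0.65) and Mt1 (ValR −0.79), and under both covariates for Slc6a9 (IleR −0.018, ValR −0.21), Mt2 (ValR −0.18) and Mt1 (ValR −0.46). The cause was not tested. No called member reversed.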
